A study of Homo sapiens with 6 samples.

Results

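The genes described here encode vascular endothelial growth factors, their receptors and neuropilin co-receptors, and endothelin with its receptor, together with 1 angiopoietin-like protein. They are VEGFA, VEGFB, VEGFC, FLT1, KDR, NRP1, NRP2, EDN1, EDNRA and ANGPTL4, and they were taken as all non-control probes that the scanner files name for these 10 genes. The rule gave 25 of the 41000 probes of the Agilent Whole Human Genome array. Each of the 6 arrays was hybridized with 2 RNAs, 1 in Cy3 and 1 in Cy5, so every probe yields a ratio and a level in both RNAs. In SKOV3, an established human ovarian adenocarcinoma line, RNA of clone sh-S1 and RNA of clone sh-S2 were each set against RNA of 1 Ctrl clone. The sh clones are stable, puromycin-selected lentiviral lines with a pLKO.1-puro shRNA against Hic-5, the focal adhesion protein encoded by TGFB1I1, and the Ctrl clone carries a scramble sequence in the same vector. In A2780s, another established ovarian cancer line, 1 neomycin-selected clone with the human Hic-5 gene in pCMV6 (pCMV-Hic-5) was set against 1 mock clone with the empty vector. Every pair of RNAs was hybridized on 2 arrays with the dyes exchanged, which count as 1 replicate. SKOV3 therefore has 2 replicates, the clones, which share 1 Ctrl RNA, and A2780s has 1, without a test. The question posed by the design is how these genes changed when Hic-5 was lowered in SKOV3 or raised in A2780s.

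VEGFA, VEGFB and VEGFC are secreted ligands. VEGFA binds the receptor tyrosine kinases FLT1 (VEGFR1) and KDR (VEGFR2), VEGFB binds FLT1, and VEGFC acts mainly through FLT4 (VEGFR3) in lymphatic vessel growth. NRP1 and NRP2 bind VEGF ligands and class 3 semaphorins on the cell surface and hand the ligand to a signalling receptor. EDN1 encodes the precursor of endothelin-1, a vasoconstrictor peptide that also acts as a growth factor on ovarian cancer cells through EDNRA. ANGPTL4 is a secreted inhibitor of lipoprotein lipase, and VEGFA, EDN1 and ANGPTL4 are known targets of hypoxia-inducible factors.

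All 25 probes are 60 bases long, and 4 of them cross an exon junction, since their genomic span in hg19 is longer than the probe. EDN1 and 1 of the 4 VEGFA probes are printed as 10 spots on each array, and the other 23 probes as 1 spot. The GC content of the probes ran from 20.0% to 70.0%, and both ends of that range were VEGFA probes. Probe sequences are printed for 5 of the 25 probes. The first 3 are a VEGFA probe that crosses a junction at chr6:43746223-43746634 on the plus strand, a VEGFB probe at chr11:64003454-64003757 on the plus strand and an NRP1 probe at chr10:33496622-33502350 on the minus strand, all in hg19.
VEGFA A_23_P70398: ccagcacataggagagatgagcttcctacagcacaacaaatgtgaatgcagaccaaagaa
VEGFB A_24_P55971: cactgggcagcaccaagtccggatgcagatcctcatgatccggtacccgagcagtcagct
NRP1 A_24_P135322: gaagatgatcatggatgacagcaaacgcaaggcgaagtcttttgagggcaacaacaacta
The other 2 are an NRP1 and an NRP2 probe with matching bases, for NRP1 at chr10:33469039-33469098 on the minus strand and for NRP2 at chr2:206659703-206659762 on the plus strand. Capitals mark bases that are identical where the sequences overlap without a gap, which holds for 29 of 48 bases, or 60.4%.
NRP1 A_23_P86390: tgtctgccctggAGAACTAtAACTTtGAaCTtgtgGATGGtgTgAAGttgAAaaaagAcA
NRP2 A_23_P393727: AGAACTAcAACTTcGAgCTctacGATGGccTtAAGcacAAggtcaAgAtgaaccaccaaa

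The promoter of EDN1 is shown because EDN1 had the largest change of the 10 genes and because transcription factors known to act on it were among the genes measured. RefSeq promoters of GRCh38.p14 held 8 of the 10 genes, with 10 starts, and VEGFA and NRP1 were not among them. The 250 bases before the start of EDN1 that lies furthest downstream, at chr6:12290111-12290360 on the plus strand, were searched on both strands for TGANTCA, the consensus site of AP-1 (the JUN and FOS dimer), for its variant TGACTAA, and for ACGTG, the core of a hypoxia response element. Capitals mark the matches.
EDN1 promoter: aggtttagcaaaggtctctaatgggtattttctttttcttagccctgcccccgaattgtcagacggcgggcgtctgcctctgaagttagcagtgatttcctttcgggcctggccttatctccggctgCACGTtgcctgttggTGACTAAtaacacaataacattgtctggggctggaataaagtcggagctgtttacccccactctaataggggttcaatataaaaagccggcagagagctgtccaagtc
TGACTAA lies 108 to 102 bases before this start, and ACGTG lies on the other strand, 123 to 119 bases before it. No TGANTCA was found in these 250 bases. Of 35116 promoters of the same length, 1.62% hold TGACTAA on either strand, 6.57% hold TGANTCA and 18.5% hold ACGTG. Among the 10 promoters found for 8 of these genes, 1 holds TGACTAA, that of EDN1, and 3 hold ACGTG, from EDN1 and ANGPTL4. The promoters of VEGFA and NRP1 were not searched. The matches describe letters and were not tested as binding sites.

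The Cy5 channel was dim on the SKOV3 arrays, with a median net signal of 9.52 to 25.5 intensity units against 373 to 530 in Cy3, and 43.7% to 63.6% of spots were well above background in Cy5 against 88.8% to 94.5% in Cy3. In A2780s the medians were 325 and 369 in Cy3 and 441 and 568 in Cy5. TGFB1I1 checked the labels. Its log2 ratios of clone over Ctrl were -0.16 and 0.12 in sh-S1 and -0.12 and 0.28 in sh-S2, a mean of 0.03 ± 0.07 (SD, n = 2; adjusted p = 0.854, limma). By this 1 probe its RNA was not lower in the libraries labelled sh-S1 and sh-S2, and directions in SKOV3 rest on the labels. The net signals of the probe there were 8.44 to 26.1 intensity units in Cy5, low enough to shrink a ratio, and 472 to 717 in Cy3. The paper reports that these clones were selected by their Hic-5 mRNA and protein. In A2780s the TGFB1I1 ratios were 4.05 and 2.60. All SKOV3 arrays lie on 1 slide and both A2780s arrays on another, and the slide cannot be told apart from the cell line. Of 7 markers of epithelial ovarian cancer lines, 6 were tested in SKOV3. By their brightest probe 4 were called lower (KRT8, KRT18, KRT19 and PAX8), and WT1 and MUC16 were not called. Over all probes tested, 4.16% were called lower and 2.98% higher. The tested probes of KRT8 ran from -2.14 to -0.38. The summed level of the 7 markers was 30031 to 44138 in Ctrl and 5102 to 7489 in the labelled sh clones. None of the 5 endothelial, 4 leukocyte and 3 fibroblast markers tested was called there. Summed levels of the endothelial markers were 2274 to 2481 in Ctrl and 2207 to 2456 in the labelled sh clones. Of these 10 markers, 5 were well above background on all arrays in SKOV3 Ctrl, 3 in sh-S1, 5 in sh-S2 and 6 in each A2780s RNA. PECAM1, TEK and TIE1 were so in no RNA of either line. In A2780s, 1 of the 5 epithelial markers measured was called, KRT18, higher at 0.59 by its brightest probe. Its 4 probes ran from -0.10 to 0.76, and the median of the 5 markers was 0.04. PDGFRA, a fibroblast marker, was called lower at -0.83. Over all probes measured there, 3.26% were called higher and 1.32% lower. The summed level of the 5 fibroblast markers was 2382 and 2512 in Ctrl and 1864 and 1983 in pCMV-Hic-5, and their median ratio was -0.42 over the 4 measured, while 0 of the 6 endothelial and 5 leukocyte markers measured were called. The part of these shifts in the results below was not tested.

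In SKOV3, EDN1, VEGFC, 1 probe of NRP1 and 1 probe of NRP2 were lower in both labelled sh clones, VEGFA, VEGFB, KDR, EDNRA and ANGPTL4 stayed within 2-fold of Ctrl, and FLT1 was too dim to test. In A2780s, VEGFA was higher in pCMV-Hic-5 by 2 of its 4 probes, and no other gene of the 10 reached 1.5-fold on average. Of the 25 probes, 16 from 9 genes were bright enough to be tested in SKOV3, which required a signal well above background for Ctrl on all 4 arrays, or for a clone on the 2 arrays that carry it. Of these, 4 were called lower and 0 higher by an adjusted p (limma) no larger than 0.05 with at least a 2-fold change, where 4.16% of the 24956 probes tested were called lower and 2.98% higher. By the adjusted p alone, 7 of the 16 were past the threshold, all of them lower, where 16.2% of all probes tested were past it and lower and 15.6% past it and higher. Of the 16 probes, 4 passed the filter through Ctrl alone, the RNA in which they are high, so they had to differ. These were 2 of the 4 called lower, NRP1 A_24_P928052 and NRP2 A_24_P84130, and 2 more of the 7, NRP1 A_24_P135322 and NRP2 A_24_P50801, and the counts are therefore a description. Without the filter, 4 probes of these genes were called lower and 0 higher, where 1038 of all probes were called lower and 742 higher. That run still asked for a ratio on all 4 arrays, which VEGFB A_23_P1594 lacked. The median log2 ratio was -0.15 over the 16 probes and 0.00 over all probes tested. In A2780s, 14 probes from 8 genes were measured, and 2 were called higher and 0 lower, where called means a mean of at least 1.5-fold with the same direction on both arrays. The same rule called 3.26% of all 30530 probes higher and 1.32% lower, and the median was -0.03 over the 14 probes against -0.01 over all.

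**Figure D1:**
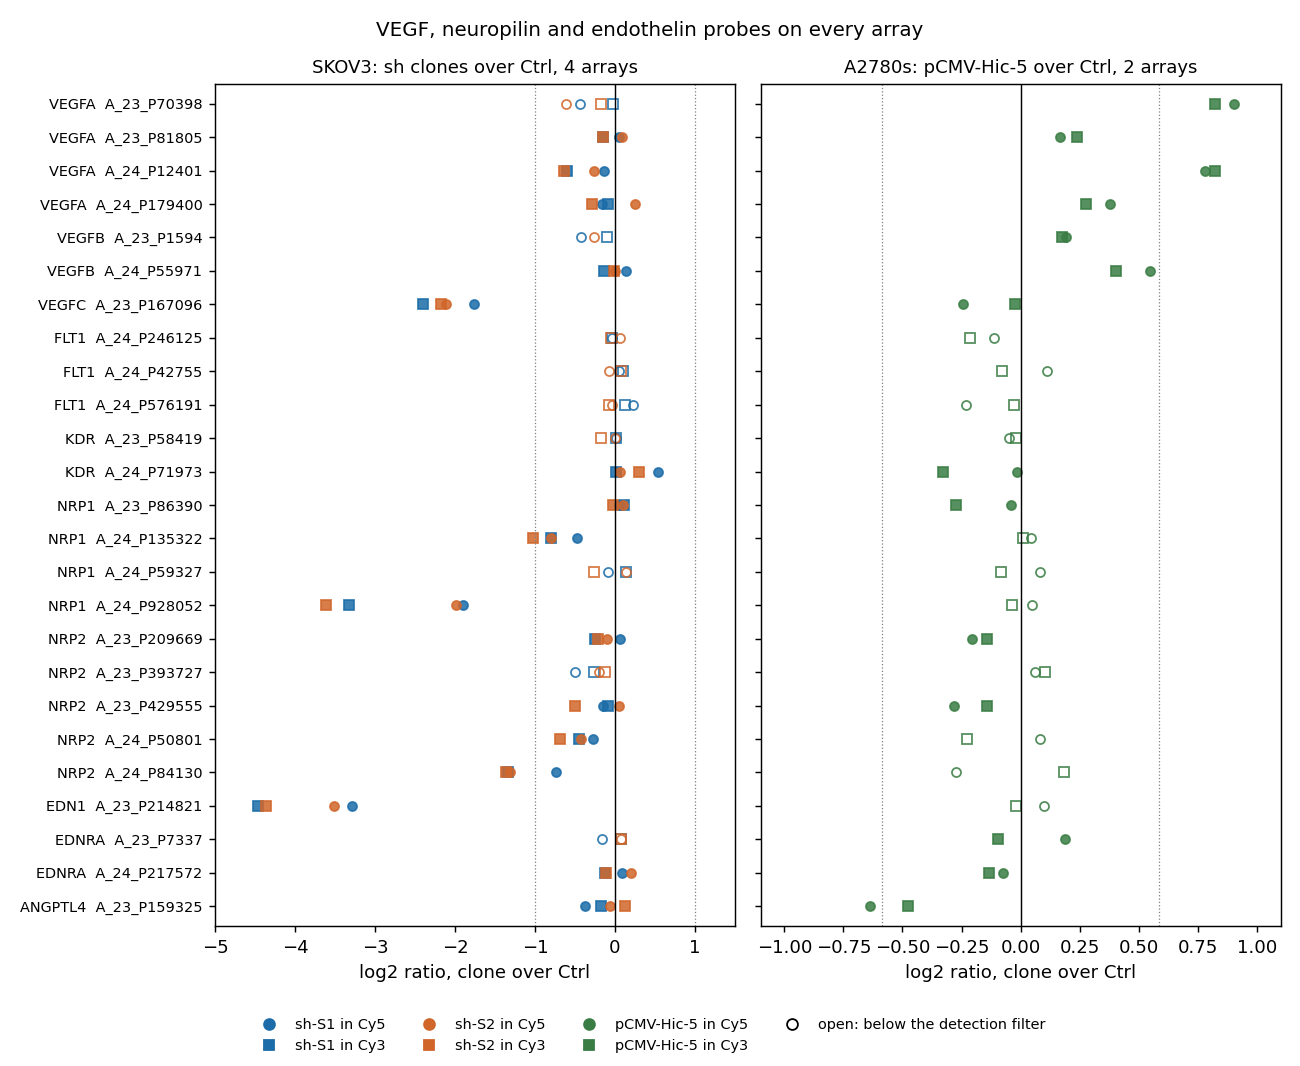
Log2 ratio of clone over Ctrl (x axis) for each of the 25 probes (rows) on the 4 SKOV3 arrays (left) and the 2 A2780s arrays (right, on a narrower axis). Circles are arrays with the clone in Cy5 and squares in Cy3, open symbols are probes that did not pass the detection filter, and dotted lines mark 2-fold (left) and 1.5-fold (right); EDN1, VEGFC and NRP1 A_24_P928052 lie below -1 on all 4 SKOV3 arrays, and VEGFA A_23_P70398 and A_24_P12401 lie above 1.5-fold on both A2780s arrays.

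VEGFA was read by 4 probes, which follow the gene from its upstream part to its downstream end at chr6:43738611-43738670 (A_24_P179400), at the junction given above (A_23_P70398), at chr6:43752525-43752584 (A_23_P81805) and at chr6:43753511-43753570 (A_24_P12401). In SKOV3 none of the 3 probes tested reached 2-fold. For A_23_P81805, the probe with 10 spots, the log2 ratios were 0.05 and -0.15 in sh-S1 and 0.09 and -0.15 in sh-S2, where the first value of each pair has the clone in Cy5 and the second in Cy3. Its mean was -0.04 ± 0.02 (SD, n = 2; adjusted p = 0.816, limma), with a 95% interval of -0.26 to 0.18. The sign followed the dye in both clones, and the spots of 1 array had an SD of 0.09 to 0.34. A_24_P179400 gave -0.16 and -0.08 in sh-S1 and 0.25 and -0.28 in sh-S2, a mean of -0.07 ± 0.08 (SD, n = 2; adjusted p = 0.661, limma), with arrays on both sides of 0. A_24_P12401 was lower on all 4 arrays, at -0.14 and -0.60 in sh-S1 and -0.26 and -0.63 in sh-S2. Its mean of -0.41 ± 0.06 (SD, n = 2) had an adjusted p of 0.0168 (limma) and was short of 2-fold. With the clones in Cy5 alone it was -0.20 and its adjusted p 0.211, and with the processed signals of the scanner software it was -0.83. A_23_P70398 did not pass the filter, with Ctrl well above background on 3 of 4 arrays and the clones on 2 of 4, at ratios of -0.44 and -0.02 in sh-S1 and -0.61 and -0.17 in sh-S2.

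In A2780s, all 4 VEGFA probes were well above background in both RNAs on both arrays, and all 8 ratios were above 0. A_23_P70398 gave 0.90 and 0.82, a mean of 0.86 or 1.82-fold. A_24_P12401 gave 0.78 and 0.82, a mean of 0.80 or 1.74-fold. Both of these were called. A_24_P179400 gave 0.38 and 0.28, a mean of 0.33 or 1.25-fold, and A_23_P81805 gave 0.17 and 0.24, a mean of 0.20 or 1.15-fold, and neither was called. Sorted by these ratios, the probes form a higher and a lower pair, the same on both arrays, which carry the same 2 RNAs. The higher and the lower pair alternate along the gene. The range over the 4 probes was 0.74 and 0.59 on the A2780s arrays and 0.48 to 0.86 on the SKOV3 arrays, where it includes the probe that was not tested. On the A2780s arrays, the 8 and 10 spots of A_23_P81805 that entered had SDs of 0.06 and 0.18, so its gap to the higher pair was larger than the spread between its own spots. The other VEGFA probes have 1 spot each, and their spread between spots is not known. VEGFA as a gene was called higher by its brightest probe, A_24_P12401, and not by the mean over its probes, 0.55. The higher pair holds the probe with the lowest GC content of all 25, A_24_P12401 at 20.0%, and the lower pair the one with the highest, A_24_P179400 at 70.0%, whereas A_23_P70398 and A_23_P81805 both have 45.0%. The part of transcript forms or of probe composition in this split was not tested, and A2780s has 1 pair of RNAs, so the change in VEGFA has no replicate check.

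**Figure D2:**
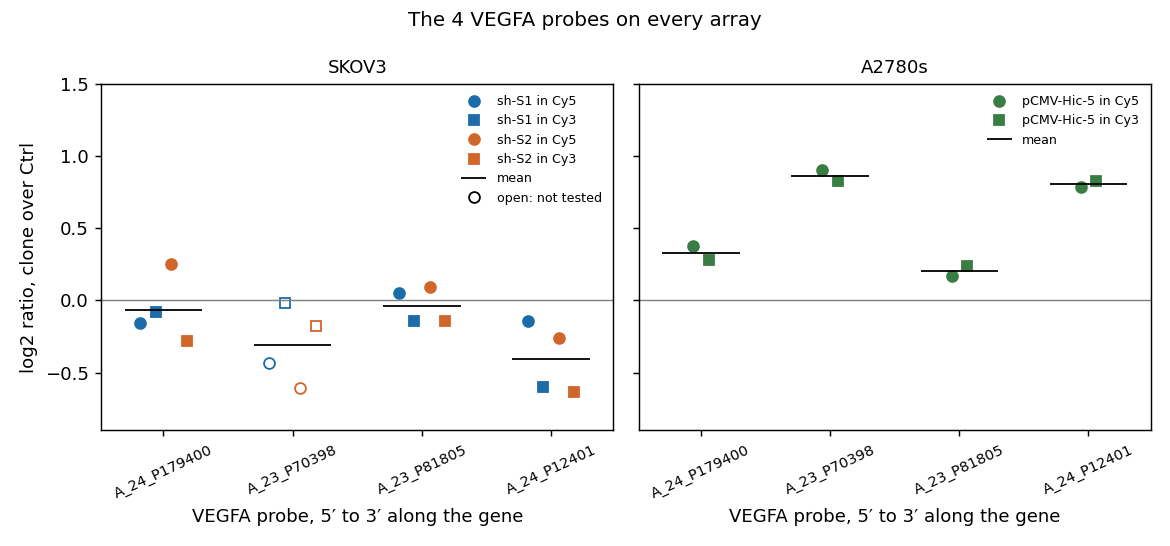
Log2 ratio of clone over Ctrl (y axis) for the 4 VEGFA probes in their order along the gene (x axis) on the SKOV3 arrays (left) and the A2780s arrays (right). Points are arrays, open points belong to the probe that was not tested in SKOV3, and bars are means; in A2780s, A_23_P70398 and A_24_P12401 have means of 0.86 and 0.80 and the other 2 probes 0.33 and 0.20, and in SKOV3 the means lie between -0.41 and -0.04.

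VEGFB, read by A_24_P55971 at the junction given above, did not differ from Ctrl in SKOV3 beyond the error. Its ratios were 0.14 and -0.14 in sh-S1 and 0.00 and -0.02 in sh-S2, so the arrays lay on both sides of 0, and the mean of -0.01 ± 0.004 (SD, n = 2; adjusted p = 0.972, limma) had a 95% interval of -0.23 to 0.22. In A2780s this probe gave 0.55 and 0.41, a mean of 0.48 or 1.39-fold, and it passed 1.5-fold with the processed signals, at 0.62. The other VEGFB probe, A_23_P1594 at chr11:64006111-64006170, gave 0.19 and 0.18 in A2780s, a mean of 0.18, so both probes were above 0 on both arrays and both were short of 1.5-fold. In SKOV3 it was not tested, since its spot on 1 array carried an outlier flag, and its other ratios were -0.42, -0.10 and -0.27.

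VEGFC, the lymphatic growth factor, fell in both labelled sh clones. Its probe, A_23_P167096 at chr4:177604823-177604882 on the minus strand, gave ratios of -1.76 and -2.40 in sh-S1 and -2.11 and -2.18 in sh-S2, and it was well above background in all RNAs of SKOV3 on all arrays. The mean of -2.11 ± 0.05 (SD, n = 2) is a 4.32-fold lower level, with an adjusted p of 1.48e-05 (limma) and a 95% interval of -2.33 to -1.89. Log2 levels were 9.67 to 10.81 in Ctrl over 4 arrays, 7.75 and 8.88 in sh-S1 and 7.49 and 8.69 in sh-S2, so the groups did not overlap. Less RNA per cell and fewer expressing cells cannot be told apart in such samples. With the processed signals the ratio was -2.97. In A2780s VEGFC gave -0.24 and -0.02, a mean of -0.13, with levels of 7.74 and 7.86 in Ctrl and 7.62 and 7.72 in pCMV-Hic-5.

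FLT1 and 1 of the 2 KDR probes were near the limit of detection. FLT1 was read by 3 probes, A_24_P246125, A_24_P42755 and A_24_P576191, and none of them passed the filter in either line. Their mean ratios lay between -0.01 and 0.06 in SKOV3 and between -0.16 and 0.02 in A2780s, and they carry no information on a change. KDR was read by A_23_P58419, which crosses a junction at chr4:55948798-55953828 on the minus strand and did not pass the filter in either line, and by A_24_P71973 at chr4:55945397-55945456, which was well above background in both RNAs on all 6 arrays. In SKOV3, A_24_P71973 was above 0 on all 4 arrays, the only one of the 16 probes tested to be so, at 0.54 and 0.02 in sh-S1 and 0.06 and 0.30 in sh-S2. The mean of 0.23 ± 0.07 (SD, n = 2) had an adjusted p of 0.116 (limma). In A2780s it gave -0.01 and -0.33, a mean of -0.17. FLT4, the receptor of VEGFC, had a log2 ratio of 0.09 in SKOV3 (adjusted p = 0.557, limma) by the 1 of its 3 probes that was tested.

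NRP1, the first neuropilin, was read by 4 probes that disagreed in SKOV3. A_24_P928052 at chr10:33466936-33466995, the furthest downstream, gave -1.90 and -3.33 in sh-S1 and -1.99 and -3.61 in sh-S2. Its mean of -2.71 ± 0.13 (SD, n = 2) is a 6.52-fold lower level, with an adjusted p of 7.61e-06 (limma) and a 95% interval of -2.94 to -2.47. Ctrl was well above background on all 4 arrays and each clone on 1 of its 2, the array with the clone in Cy3, so with the clones in Cy5 the ratio had a dim clone channel, and the mean was -1.94 there against -3.47 with the clones in Cy3. With the processed signals the ratio was -4.54. A_24_P135322, at the junction given above, was also lower on all 4 arrays, at -0.48 and -0.80 in sh-S1 and -0.80 and -1.03 in sh-S2. Its mean of -0.78 ± 0.19 (SD, n = 2; adjusted p = 0.00198, limma) was short of 2-fold, and it passed 2-fold with median centring in place of loess, at -1.52, and with the processed signals, at -3.38. In Cy3 its net signal was 1205 and 1019 intensity units in Ctrl and 78.4 and 100 in the clones. The offset of 50 added to every signal makes the ratios of dim probes smaller, so the size of this change depends on the processing. A_23_P86390, whose sequence is printed above, gave 0.05 and 0.12 in sh-S1 and 0.10 and -0.02 in sh-S2, a mean of 0.06 ± 0.03 (SD, n = 2; adjusted p = 0.695, limma) with a 95% interval of -0.16 to 0.28. The intervals of these 3 probes did not overlap, but they come from 2 dye-averaged clone means against 1 Ctrl RNA. They leave out the spread of that RNA, of the dyes and of the processing, and the differences between probes were not tested. A_24_P59327 at chr10:33490019-33490078 was well above background in neither sh clone and in Ctrl on 2 of 4 arrays, and was not tested.

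The probes also differed in where they were detected. In A2780s, A_24_P928052, A_24_P135322 and A_24_P59327 were well above background in neither RNA on any array, whereas A_23_P86390 was well above background in both RNAs on both arrays, with ratios of -0.04 and -0.27. A_23_P86390 was also well above background in all RNAs on all arrays of SKOV3. A_23_P86390, not past the threshold in SKOV3, was thus the 1 NRP1 probe with signal in A2780s, and what that signal represents was not tested.

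NRP2, the second neuropilin, was read by 5 probes, of which 4 were tested in SKOV3 and 1 was called lower. A_24_P84130 at chr2:206644148-206644207 gave -0.74 and -1.34 in sh-S1 and -1.31 and -1.37 in sh-S2, a mean of -1.19 ± 0.21 (SD, n = 2; adjusted p = 0.000346, limma). It was well above background in Ctrl on 4 of 4 arrays and in the sh clones on none. By mean level Ctrl was 2.05-fold higher than sh-S1 and 2.54-fold higher than sh-S2. These folds rest on dim clone signals and are not lower limits. In Cy3 the net signal was 1719 and 1576 intensity units in Ctrl and 59.8 and 64.4 in the clones. Log2 levels were 7.44 to 8.79 in Ctrl over 4 arrays, 6.13 and 8.04 in sh-S1 and 6.07 and 7.48 in sh-S2, so the levels overlapped across the dyes while Ctrl was higher on every array. With the processed signals the ratio was -4.38, and with median centring -2.10. A_24_P50801 at chr2:206608080-206608139 was lower on all 4 arrays, at -0.28 and -0.45 in sh-S1 and -0.43 and -0.68 in sh-S2, a mean of -0.46 ± 0.13 (SD, n = 2; adjusted p = 0.013, limma), short of 2-fold, and reached -1.56 with the processed signals. In Cy3 its net signal was 471 and 435 intensity units in Ctrl and 132 and 189 in the clones. A_23_P209669 at chr2:206661765-206661824 had a mean of -0.13 ± 0.04 (SD, n = 2; adjusted p = 0.383, limma) and A_23_P429555 at chr2:206641431-206641490 had a mean of -0.17 ± 0.07 (SD, n = 2; adjusted p = 0.229, limma), each with 1 array above 0. A_23_P393727, set against an NRP1 probe above, did not pass the filter and had a mean of -0.27. The brightest probe of NRP2 was A_23_P209669, so the gene was not called by its brightest probe, and the mean over its 4 tested probes was -0.49. In A2780s, A_23_P209669 and A_23_P429555 were measured, with means of -0.17 and -0.21, and both were below 0 on both arrays.

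**Figure D3:**
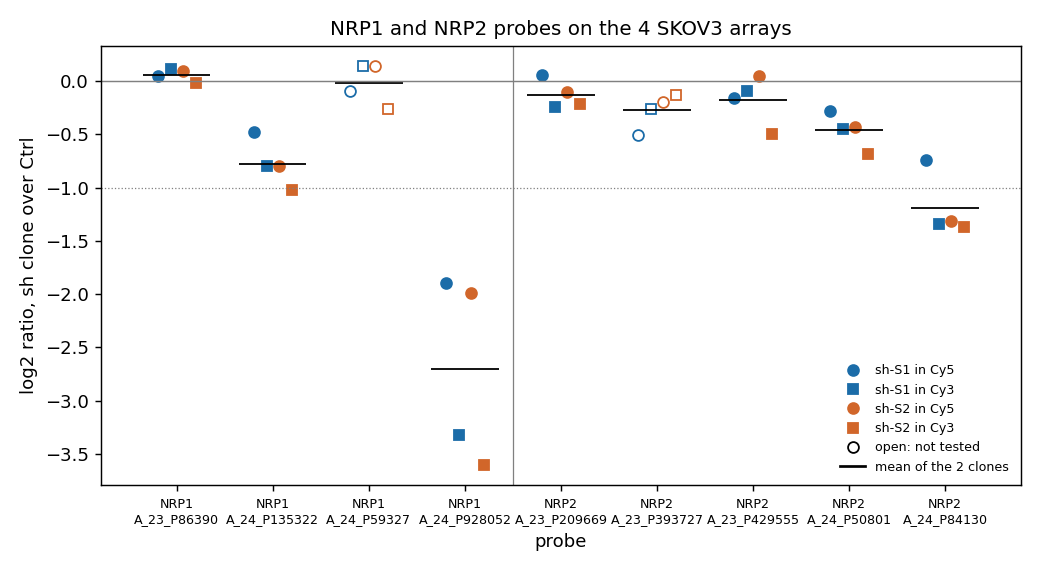
Log2 ratio of sh clone over Ctrl (y axis) for the 4 NRP1 and 5 NRP2 probes (x axis) on the 4 SKOV3 arrays. Points are arrays, open points are probes that were not tested, bars are means of the 2 clones and the dotted line marks 2-fold lower; the NRP1 means run from -2.71 to 0.06 and the NRP2 means from -1.19 to -0.13.

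EDN1, the endothelin-1 precursor, had the largest change of the 10 genes. In SKOV3 its probe, A_23_P214821 at chr6:12296672-12296731 on the plus strand, gave -3.28 and -4.46 in sh-S1 and -3.51 and -4.37 in sh-S2. The mean of -3.90 ± 0.05 (SD, n = 2) is a 15.0-fold lower level, with an adjusted p of 2.34e-06 (limma) and a 95% interval of -4.13 to -3.68. Log2 levels were 11.62 to 12.23 in Ctrl over 4 arrays, 7.34 and 8.94 in sh-S1 and 7.26 and 8.71 in sh-S2, so Ctrl lay above every clone value. In Cy3, the brighter dye, the net signal was 25772 and 21983 intensity units in Ctrl and 515 and 645 in the clones. Between 7 and 9 of the 10 spots entered on each SKOV3 array and their log2 ratios had SDs of 0.08 to 0.30, which is small beside the change. The clones differed by 0.07 and the dye orientations by more, with -3.40 where Cy5 marked the clones and -4.41 where Cy3 did. With the processed signals the ratio was -4.80. In A2780s each RNA was well above background on 1 of 2 arrays, with net signals of 57.8 to 118 intensity units and ratios of 0.10 and -0.02, and EDN1 did not pass the filter there, so whether it followed pCMV-Hic-5 was not measurable.

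EDNRA, the endothelin A receptor, did not follow EDN1. A_24_P217572 at chr4:148465478-148465537 gave 0.09 and -0.13 in sh-S1 and 0.20 and -0.12 in sh-S2, a mean of 0.01 ± 0.04 (SD, n = 2; adjusted p = 0.958, limma) with a 95% interval of -0.21 to 0.23. A_23_P7337 at chr4:148457083-148457142 was not tested in SKOV3, where its mean was 0.02. In A2780s both probes were measured, with means of -0.10 and 0.05.

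**Figure D4:**
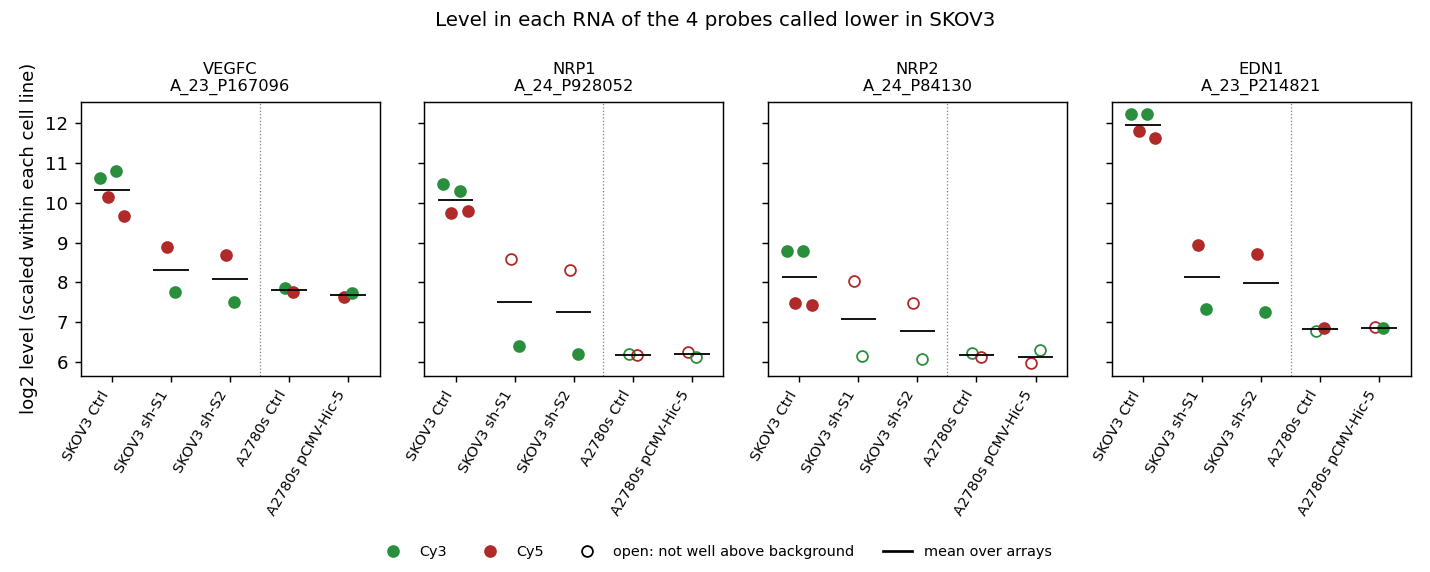
Log2 level (y axis, scaled within each cell line, so not comparable between lines) of the 4 probes called lower in SKOV3, in each RNA (x axis). Points are arrays coloured by dye, open points were not well above background and bars are means; in SKOV3 the level of EDN1 was 11.62 to 12.23 in Ctrl and 7.26 to 8.94 in the sh clones, and the NRP1 and NRP2 probes were well above background in neither A2780s RNA.

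ANGPTL4, read by A_23_P159325 at chr19:8439169-8439228, moved little in SKOV3, at -0.37 and -0.17 in sh-S1 and -0.07 and 0.13 in sh-S2. The mean was -0.12 ± 0.21 (SD, n = 2; adjusted p = 0.476, limma), with a 95% interval of -0.38 to 0.14, and the clones had opposite signs at -0.27 and 0.03. In A2780s it was below Ctrl on both arrays, at -0.64 and -0.48, a mean of -0.56 or 1.47-fold lower, just short of 1.5-fold. The array with Cy5-labelled pCMV-Hic-5, taken alone, would have called it. Its log2 levels there were 12.86 and 12.89 in Ctrl and 12.23 and 12.42 in pCMV-Hic-5, so the RNAs did not overlap.

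Across both lines, 11 probes were tested in SKOV3 and measured in A2780s. None was called in both. VEGFA A_24_P12401 was below Ctrl on all 4 SKOV3 arrays and above it on both A2780s arrays, and KDR A_24_P71973 had the reverse signs, while VEGFC was below 0 on all 6 arrays, by more than 2-fold only in SKOV3. The difference between the lines was not tested. The clones sh-S1 and sh-S2 differed from each other by at most 0.30 on the log2 scale over the 16 probes tested, and both are set against the same Ctrl RNA, so an error of that RNA would appear in both. The number of arrays and the dim Cy5 channel limit the precision of these values.

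Related genes, from lists drawn by known roles with earlier results of these data known, were read by the brightest probe of each gene. The counts are therefore a description. Over all probes, 4.16% were called lower and 2.98% higher in SKOV3, and 1.32% lower and 3.26% higher in A2780s. In SKOV3, of 18 tested of 19 upstream regulators of VEGFA, EDN1 and ANGPTL4, 3 fell and 0 rose. The 3 were JUN, the AP-1 subunit, at -3.32 ± 0.09 (SD, n = 2; adjusted p = 3.54e-06, limma), EPAS1, which encodes HIF-2α, at -2.57 ± 0.41 (adjusted p = 4.16e-05, limma), and HIF1A, which encodes HIF-1α, at -2.09 ± 0.12 (adjusted p = 1.88e-05, limma). The median of the list was -0.11. In A2780s, 3 of 18 were called higher and 0 lower, namely JUN at 2.20, ATF4, a factor of the integrated stress response, at 1.48, and FOS, the partner of JUN, at 0.65, and the list's median was 0.10. JUN was thus called in both lines, lower in SKOV3 and higher in A2780s, and the difference between the lines was not tested.

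Of 41 genes of VEGF receptor signalling, 38 were tested in SKOV3, where 4 fell and 1 rose, with a median of -0.20. HSPB1, a small heat shock protein phosphorylated downstream of p38, was at -1.79 (adjusted p = 3.21e-05, limma), and PRKCA, a protein kinase C, was at -1.41 by its brightest probe (adjusted p = 8.43e-05, limma) and at -0.55 by its other tested probe. SHC1, an adaptor of receptor tyrosine kinases, was at 1.55 (adjusted p = 9.57e-05, limma) by its brightest probe and at 0.18 by its other probe. In A2780s, 40 were measured and 1 was called, PIK3CA, the catalytic subunit of a PI3-kinase, at -0.66, and the median was 0.01. Of 12 class 3 semaphorins and plexins, the other ligands and partners of neuropilins, 7 were tested in SKOV3. SEMA3C was at -1.70 (adjusted p = 3.93e-05, limma) and SEMA3D at 2.16 by its brightest probe (adjusted p = 1.87e-05, limma) and at 0.49 by its other tested probe, while the list's median was -0.29. In A2780s 11 were measured and 0 were called.

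Of 11 angiopoietins and angiopoietin-like genes, 3 were tested in SKOV3 and 5 measured in A2780s. ANGPTL2, a secreted relative of ANGPTL4, was at 1.20 in SKOV3 (adjusted p = 0.00032, limma) and at -0.61 in A2780s, and it was called in both by its brightest probe, while its other probe gave 0.52 and -0.19. The 2 tested of 3 other VEGF ligands and receptors, and the 3 tested of 5 other endothelin genes, had no call in SKOV3, nor had the 3 and 4 measured in A2780s. In SKOV3, ECE1, which cleaves the endothelin precursor, was at -0.43 (adjusted p = 0.0261, limma), short of 2-fold. ECE2 was at 0.50 by its brightest probe (adjusted p = 0.00961, limma), also short of 2-fold, and at 0.03 by its other tested probe.

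**Figure D5:**
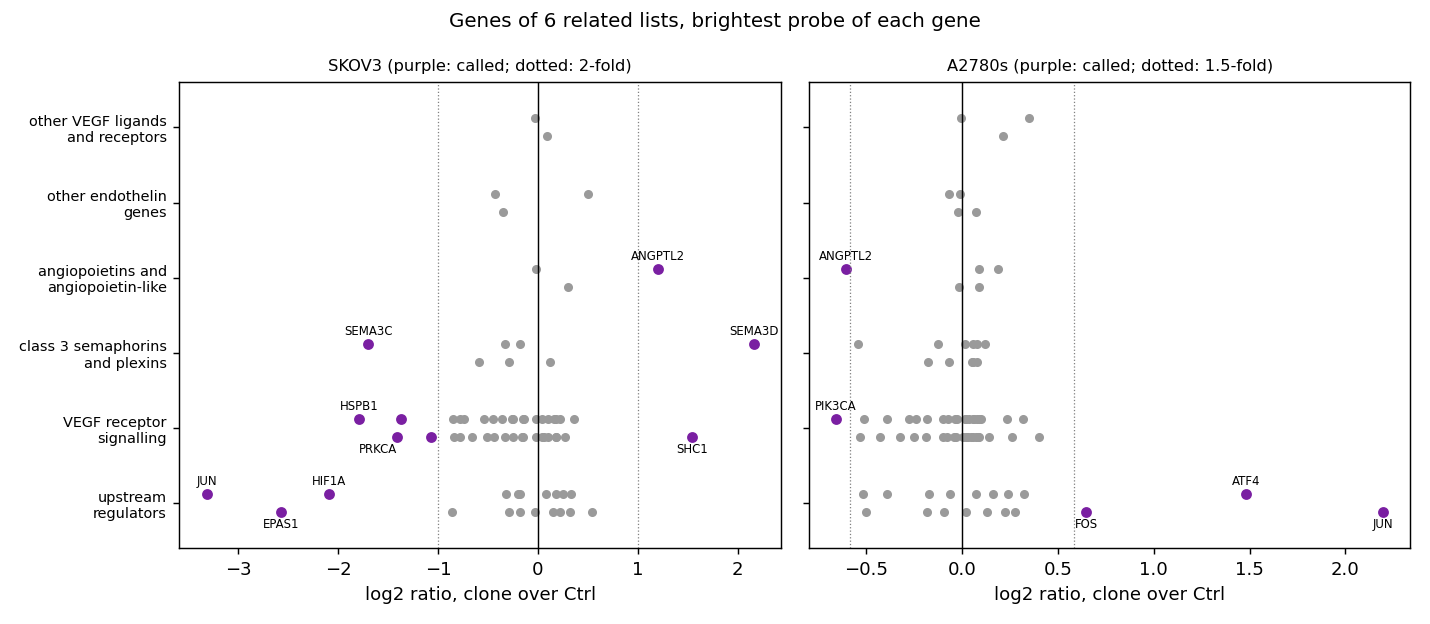
Log2 ratio of clone over Ctrl (x axis) of each tested gene of 6 related lists (rows) in SKOV3 (left) and A2780s (right, on a narrower axis), by the brightest probe. Purple points were called, most of them with their names, and grey points were not; in SKOV3 the upstream regulators JUN, EPAS1 and HIF1A lie at -3.32, -2.57 and -2.09, and in A2780s JUN lies at 2.20.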

How the data were processed

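The authors deposited, for each of 6 two-colour Agilent arrays, the scanner output with mean and local background intensity of every spot in Cy3 and Cy5, and log10 ratios of Cy5 over Cy3. The submitters' processing notes name Agilent Feature Extraction 8.5.1.1. The value table deposited for the series holds the same log10 ratios, rounded to within 0.005 and not turned for dye, and was used only for that check. The files' well-above-background and outlier flags were also used.

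The normexp method of limma 3.58.1 corrected the background, with an offset of 50 (R 4.3.3 and data.table, version 1.17.8), with parameters fitted without flagged background spots. The offset is added to every signal and shrinks the ratios of dim probes. On 1 A2780s array, 39 spots with a local background over 1000 were left out, a choice made after the data were seen. Ratios were normalized by loess (span 0.3), spots of a probe were averaged, and each log2 ratio was given the direction of clone over Ctrl. Dye-swapped arrays were averaged. In SKOV3, clone means were compared with 0 by limma's lmFit and eBayes and adjusted by Benjamini-Hochberg over 24956 probes, which leaves out the spread of the single Ctrl RNA. Nothing in the labels says that the clones' RNAs come from repeated cultures. Levels per channel were scaled by Aquantile within each line. Coordinates are those of the array design in hg19, for which no exon annotation was used here, and promoter sequences are RefSeq's for GRCh38.p14.

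All probes of the 10 genes are named, and from each related list the called genes, at most 3 in each direction, by the probe with the highest mean level. Some of these called genes are not reported here by name. ECE1, ECE2 and FLT4 were named after their values were seen. The members and lists were chosen with earlier results of these data known. The calling rules of both lines were tried on simulated data with known changes. Errors were drawn independently for each clone, so the simulation could not show an error of the shared Ctrl RNA. Alternatives covered background correction, centring, the filter on dim probes, each dye orientation, each clone left out, the probe standing for a gene and the thresholds.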

Additional observations from a re-analysis of the deposited data

Results flagged for a closer look

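For some probes, the ratios on both arrays of a labelled sh clone in SKOV3 had one sign and those on both arrays of pCMV-Hic-5 in A2780s the opposite sign. Some of these ratios were close to 0. None of these differences was tested, and the slide cannot be told apart from the cell line. VEGFA A_24_P12401 had mean log2 ratios of -0.37 (sh-S1) and -0.45 (sh-S2) against 0.80 in pCMV-Hic-5, differences of 1.17 and 1.25. VEGFA A_24_P179400 had -0.12 in sh-S1 against 0.33, a difference of 0.45, and VEGFB A_24_P55971 had -0.01 in sh-S2 against 0.48, a difference of 0.49. The VEGFB ratios in sh-S2 were near 0, at -0.002 and -0.016, and those in sh-S1 had mixed signs, at 0.14 and -0.14. KDR A_24_P71973 ran the other way, with 0.28 in sh-S1 and 0.18 in sh-S2 against -0.17, differences of -0.45 and -0.35. NRP1 A_23_P86390 had 0.08 in sh-S1 against -0.16, a difference of -0.24.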

How the results depend on the processing

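Across all probes, the counts in SKOV3 (743 higher and 1038 lower) became 1971 and 2355 with the scanner software's processed signals, 1578 lower with median centring and 1223 higher with only the clones in Cy3. In A2780s (994 higher and 403 lower) they became 693 lower with the processed signals, 1795 higher and 1516 lower with only the clone in Cy5, 210 lower with only the clone in Cy3, and 495 higher and 123 lower when 1.5-fold was asked of each array. Of the member probes, 1 was lower in A2780s with only the clone in Cy5 (ANGPTL4), and with the mean over probes 0 genes were higher, since VEGFA then missed 1.5-fold. Leaving out either clone, with calls by fold alone and no test, gave 787 to 836 probes higher and 984 to 1160 lower in SKOV3, and 4 to 4 member probes lower and 0 to 0 higher. The 4 member probes called lower in SKOV3 and the 2 called higher in A2780s kept their calls under every alternative run for probes. Of single probe values under alternatives, TGFB1I1 included, 154 in SKOV3 kept their direction and their side of the threshold, 13 that were near 0 and not called changed sign, and 3 newly passed the threshold. In SKOV3, VEGFA A_24_P179400 came to 0.024 and VEGFB A_24_P55971 to 0.020 with the processed signals. With median centring, VEGFB A_24_P55971 came to 0.055, NRP1 A_23_P86390 to -0.11 and EDNRA A_24_P217572 to -0.11. With only the clones in Cy5, VEGFA A_23_P81805 came to 0.070, VEGFA A_24_P179400 to 0.046, VEGFB A_24_P55971 to 0.067 and TGFB1I1 to -0.14, and with only the clones in Cy3 EDNRA A_24_P217572 came to -0.12. Leaving out a clone gave -0.021 to 0.040 for EDNRA A_24_P217572, -0.27 to 0.029 for ANGPTL4 and -0.021 to 0.083 for TGFB1I1. In A2780s, 118 values kept their side of the threshold, of which 1 changed sign (EDNRA A_23_P7337, -0.09 with only the clone in Cy3), and 2 newly passed it. The values that newly passed belonged to NRP1 A_24_P135322 and NRP2 A_24_P50801 in SKOV3, and to VEGFB A_24_P55971 and ANGPTL4 in A2780s. The cause was not tested. A block for the slide was not run, because each line lies on 1 slide. No paired analysis was possible because the replicate numbers name dye-swapped arrays of the same RNAs. The dim Cy5 channel in SKOV3 limits what can be read of low probes.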
